A study of Homo sapiens with 39 samples.

Results

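A375 clones that lack a regulatory region called R1 were compared with A375 clones that lack a region called R4, without the unedited parental cells. A375 is an established human melanoma cell line, and per the labels the deleted regions are enhancer regions of SOX10. The R1 group held 7 libraries, 3 of clone 1.1 and 4 of clone 1.2, and the R4 group held 7 libraries, 4 of clone 4.1 and 3 of clone 4.2. These 14 libraries are a part of the 39 in the study, which also covers unedited A375 cells and the melanoma line WM115 with the same 2 kinds of deletion. Every clone compared here carries a deletion near the same gene, so the comparison sets 1 deletion against the other and has no unedited reference. The labels give neither the coordinates of the regions nor the number of edited alleles, and each clone is a single line, with its libraries as repeats of that clone. Nothing in the labels says whether those repeats came from separate cultures, so p-values over libraries measure only the spread between these samples, which may be technical.

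A gene was called separated where both R1 clone means of log2(TPM + 1) lay on one side of both R4 clone means. TPM is a level per transcript length that sums to the same total in each library. Of 16427 genes with at least 1 TPM in at least 3 of the 14 libraries, 3226 were separated, which is 19.6%. Separation is the most extreme order of 2 clones against 2, and an exact test gives it a two-sided p of 0.333. By itself it therefore does not mark a difference between the deletions. A separated gene was called different when its difference also had a size of at least 1 on the log2(TPM + 1) scale and an adjusted p under 0.05 over libraries. That left 165 genes, or 1% of those tested.

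SOX10 is a transcription factor of the neural crest, the embryonic cell population that gives rise to melanocytes and to the Schwann cells of peripheral nerves. In melanocytes it acts with MITF on pigment genes, and melanoma cells that lose SOX10 are known for a shift towards a mesenchymal state with high levels of receptors such as EGFR. Enhancers are stretches of DNA that raise the transcription of a gene from a distance, and several of them can act on the same gene.

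The libraries held markers of the lineage unevenly. SOX10 lay between 381 and 876 TPM, and MITF between 7.23 and 19.7 TPM, whereas the pigment genes TYR, DCT and MLANA stayed at or under 0.976 TPM in all 14 libraries. S100B lay between 12.7 and 84.2 TPM, and the pigment gene PMEL reached at most 2.54 TPM. Most markers of keratinocytes, fibroblasts, endothelium and blood were near 0. The largest exceptions were KRT10 (40.01 to 98.4 TPM), KRT14 (0.062 to 30.4 TPM) and the lysosomal gene CD68 (18.2 to 165 TPM). Lower levels that still passed the filter were those of LUM (at most 7.45 TPM), COL1A1 (4.55), PDGFRA (3.34), KDR (2.45), DCN (2.39), FAP (2.365) and HBA1 (2.055). The number of genes with at least 1 TPM ran from 14128 to 16140. The share of TPM from mitochondrial genes ran from 0.968% to 4.92% and exceeded 2.5% in 5 libraries, which were spread over all 4 clones. Libraries of 1 clone correlated with each other at 0.944 to 0.984 over genes.

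SOX10 itself was somewhat lower in the R1 clones. Clone 1.1 had 667, 491 and 381 TPM, and clone 1.2 had 441, 406, 473 and 451 TPM. Clone 4.1 had 876, 774, 711 and 746 TPM, and clone 4.2 had 647, 541 and 488 TPM. The clone means were separated, but library 1 of clone 1.1 lay above all 3 libraries of clone 4.2, so the groups overlapped. The difference, R1 minus R4, was -0.48 (SE 0.12) on the log2(TPM + 1) scale with an adjusted p of 0.0352, and it did not reach the size needed to be called. The smallest of the 4 differences between an R1 and an R4 clone was -0.15. With the clone as the unit, 2 against 2, the unadjusted p from limma was 0.109. The adjusted p over libraries rose above 0.05 in several other settings, among them most of the fits that left out 1 library. It reached 0.0941 without library 1 of clone 4.2. Without clone 4.1 the difference was -0.24 (adjusted p = 0.596). In cultures measured in bulk, fewer cells that express a gene and less RNA per cell cannot be told apart. SOX10 lies on chromosome 22 from 37970686 to 37987422 (GRCh38, minus strand) and overlaps POLR2F on the opposite strand. Whether reads were counted by strand is not given in the sources used here. Reads from POLR2F that fall on the sequence of SOX10 transcripts therefore cannot be told apart from those of SOX10.

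Genes that lie around SOX10 on chromosome 22 went the other way. Of 21 tested, 7 were separated, beside 19.6% of all genes tested. In those 7 both R1 clones were the higher ones, while the median difference of the 21 was 0.26 against 0.01 over all genes tested. No gene of this list was called. MICALL1, which encodes a protein of endosome recycling, had clone means of 108 and 129 TPM in R1 and 54.4 and 93.2 TPM in R4, with a difference of 0.72 (SE 0.14, adjusted p = 0.00656). It was the 1 member of the 21 with an adjusted p under 0.05, beside 5.27% of all genes tested. The galectin gene LGALS1 had 1764 and 2350 TPM in R1 against 1673 and 1629 TPM in R4 (adjusted p = 0.4), and MAFF, a small partner of basic leucine zipper factors, had 21.6 and 20.6 TPM against 17.4 and 15.7 TPM (adjusted p = 0.178).

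**Figure D1:**
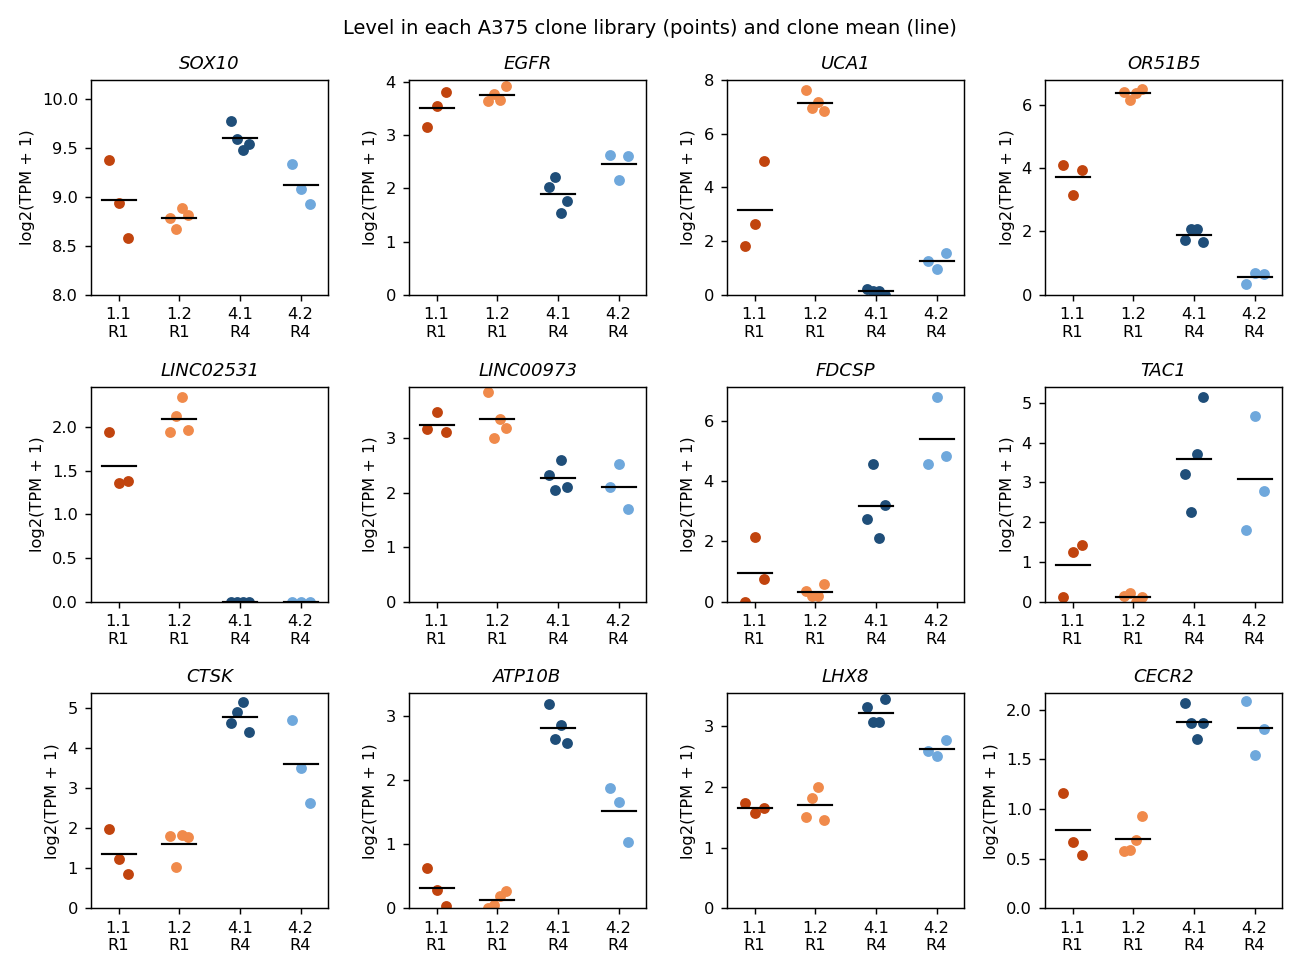
Level of 12 genes in each A375 clone library, on the log2(TPM + 1) scale, with points for libraries and a line for each clone mean. The SOX10 axis starts above 0. SOX10 libraries overlap between the groups, while all 7 R1 libraries of EGFR and LINC00973 lie above all 7 R4 libraries and the reverse holds for CTSK and LHX8.

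Of the 165 called genes, 86 were higher in R1, 0.524% of the genes tested, and 79 were higher in R4, 0.481%. The sizes were mostly modest. The median size of the difference was 1.33, the range ran from -3.64 to 4.45, and the median of the smallest clone-to-clone difference was 0.37. Called genes were also less abundant than tested genes in general, with a median of 5.24 against 12.8 TPM, and 81 of them averaged under 5 TPM. By type, 137 encode proteins and 23 are long noncoding RNAs, shares of 83.0% and 13.9% beside 78.5% and 13.1% of all genes tested. In 32 called genes all 7 libraries of 1 group lay beyond all 7 of the other, 23 of them higher in R1. Over all genes tested that held for 77, or 0.469%. The called genes were chosen by their differences over the same libraries, so their larger share partly follows from that choice.

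Most called genes rested on 1 clone more than on the other. Among the 86 genes higher in R1, clone 1.2 was the highest clone in 78 and clone 4.1 the lowest in 62. Among the 79 higher in R4, clone 4.1 was the highest in 76 and clone 1.2 the lowest in 62. Over the higher-in-R1 genes, the median difference between clones 1.2 and 4.1 was 2.21 and that between clones 1.1 and 4.2 was 0.43. The same medians over the higher-in-R4 genes were -2.25 and -0.41. Clones 1.1 and 4.2 differed by at least 1 in 23 of the 86 and in 13 of the 79. In 147 of the 165 genes, the difference between the 2 clones of at least 1 deletion exceeded the smallest difference between the deletions.

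**Figure D2:**
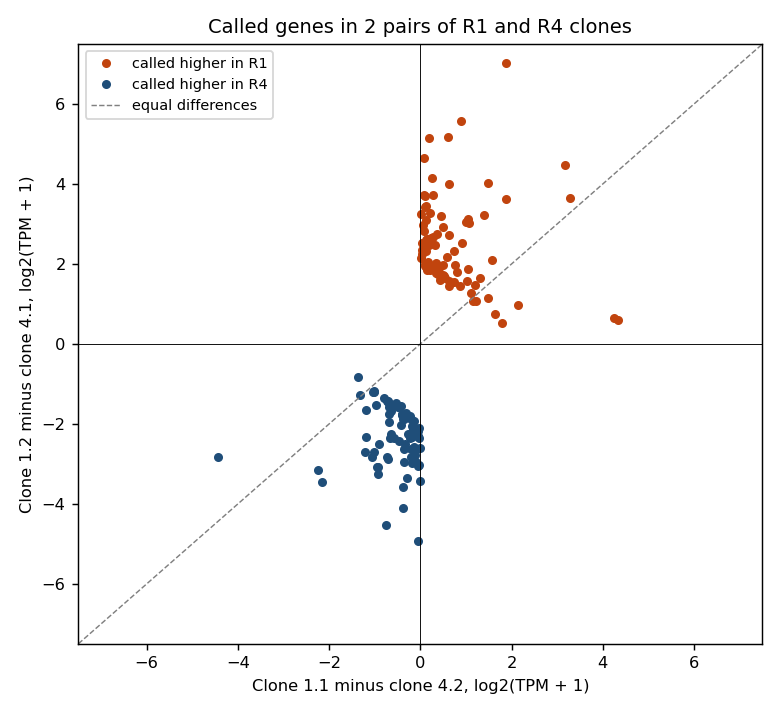
Difference of each called gene between clones 1.1 and 4.2 (horizontal) and between clones 1.2 and 4.1 (vertical), both on the log2(TPM + 1) scale, with genes higher in R1 in orange and genes higher in R4 in blue. Most points lie nearer to the vertical axis than the dashed line of equal differences, as the medians of 2.21 and 0.43 show for the genes higher in R1.

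The distances between whole clones showed the same order. Clones 1.1 and 4.2, which are labelled with different deletions, were the closest pair, with 199 genes at least 1 apart and a median size of difference of 0.13. Clones 1.1 and 1.2, which share the R1 label, had 1447 such genes, and clones 4.1 and 4.2, which share the R4 label, had 978. The most distant pair was 1.2 and 4.1 with 1482. Same-numbered libraries of clones 1.1 and 4.2 also deviated together from their clone means, with correlations of 0.439 to 0.744 over genes in 3 pairs. The deletions themselves were not checked here, since the labels give no coordinates of the regions, so each value of R1 minus R4 rests on the labels of the clones. The library test thus compares these 4 clones, and the clone-level test compares the deletions. With the clone as the unit, limma called 0 genes (0%), with 200 at an unadjusted p under 0.05 and a smallest adjusted p of 1. An exact test of 2 clones against 2 cannot go below a two-sided p of 0.333. With the clone as a random block in the library fit, 2 genes were called, LINC02531 and OR51B5, and 731 had an unadjusted p under 0.05. The counts of 200 and 731 both lie below a share of 0.05 of the 16427 genes tested, the share expected without any difference. Leaving out a whole clone gave 988 called genes without clone 1.1, 655 without clone 4.2, 97 without clone 4.1 and 48 without clone 1.2. Single libraries of clone 1.1 moved the count as well, to 270 without library 1 and to 108 without library 3. Over the 9 libraries with a mitochondrial share under 2.5%, a choice made after seeing the data, 40 genes were called, 34 of them among the 165.

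With the clone as the unit, no gene kept its call. Among the 34 called genes named here, OR51B5 and LINC02531 kept theirs in each alternative library fit in which they were tested, with the thresholds unchanged. Among those fits, another 7 lost it with the clone as a random block alone. These were EGFR, NXF2, NXF2B, LINC02184, ATP10B, NFATC2 and LHX8. Without clone 1.2, 19 of the named genes lost their call, among them UCA1, GAGE12G, IL1RL1, LINC00973, FDCSP, TAC1, CECR2, PI15, SOX8 and SPP1. Without clone 4.1, 12 lost it, among them IL1RL1, RXRG, SEMA3G, PDE3A, LRRK2 and EPHA7. In the libraries of low mitochondrial share 19 lost it, CTSK (adjusted p = 0.0555) and TAC1 (adjusted p = 0.202) included.

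**Figure D3:**
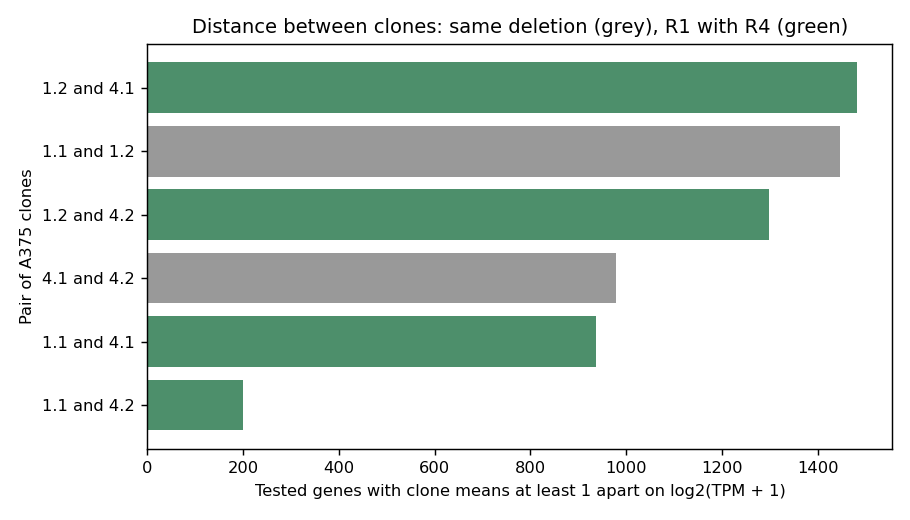
Number of tested genes whose clone means lie at least 1 apart on the log2(TPM + 1) scale, for each pair of A375 clones, with pairs of the same deletion in grey and pairs of different deletions in green. The shortest bar, 199 genes, belongs to clones 1.1 and 4.2, and the bars of the same deletion reach 1447 and 978.

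In 18 called genes both within-deletion differences were smaller than the smallest difference between the deletions. EGFR was among them. EGFR, the receptor for epidermal growth factor, had 7.85, 11.6 and 14.2 TPM as lowest, median and highest R1 library, and 1.92, 3.46 and 5.21 TPM in R4. The 7 R1 libraries lay above all 7 R4 libraries. The difference was 1.45 (SE 0.15, adjusted p = 3.59e-05), and the smallest clone-to-clone difference was 1.04. EGFR was called without any 1 library and without any 1 clone, but with the clone as a random block its adjusted p was 0.0879. The gene lies on chromosome 7 from 55019021 to 55211628 (plus strand) and overlaps the antisense transcript EGFR-AS1.

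A group of long noncoding RNAs and a pseudogene were at or near 0 in the R4 clones. LINC02531, a noncoding RNA of chromosome 6 (92723003 to 92723829), was listed at 0 in all 7 R4 libraries and had 1.56, 2.84 and 4.09 TPM as lowest, median and highest R1 library. LINC02184 on chromosome 16 had 1.37 to 3.64 TPM in R1 and at most 0.31 TPM in R4, and the pseudogene NCOR1P4 on chromosome 21 had 0.921 to 2.57 TPM against at most 0.248 TPM. None of these 3 overlapped between groups. Their levels were low in R1 as well, with medians under 3 TPM. LINC00973 on chromosome 3 was more abundant, with a median of 8.08 TPM in R1 (7.03 to 13.3) and 3.28 TPM in R4 (2.24 to 5.04). It had a difference of 1.11 (SE 0.17, adjusted p = 0.00123), and its groups did not overlap either. LINC01608 had 3.79 to 6.47 TPM against 0.03 to 3.29 TPM.

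The largest difference belonged to UCA1, a long noncoding RNA of chromosome 19 first described in bladder cancer. Its R1 libraries ran from 2.52 through a median of 113 to 196 TPM, and its R4 libraries from 0 through 0.162 to 1.96 TPM. The groups did not overlap, but the R1 level came mostly from clone 1.2 (144 ± 37.1 TPM, SD, n = 4), with clone 1.1 at 12.7 ± 15.4 TPM (SD, n = 3). The difference was 4.45 (SE 0.36, adjusted p = 5.45e-06), and without clone 1.2 it was 2.44 (adjusted p = 0.108).

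On chromosome 11, 6 called genes among the embryonic and fetal globin genes and neighbouring olfactory receptor genes were higher in R1. OR51B5 had R1 libraries of 7.81, 70.0 and 88.4 TPM as lowest, median and highest, and R4 libraries of 0.273, 2.20 and 3.18 TPM. Clone 1.2 (81.2 ± 7.85 TPM, SD, n = 4) again stood above clone 1.1 (12.8 ± 4.44 TPM, SD, n = 3), and both stood above the R4 clones. The difference was 3.82 (SE 0.15, adjusted p = 4.97e-09). HBE1, which encodes embryonic epsilon globin, had clone means of 16.0 and 100 TPM in R1 and 7.41 and 0.568 TPM in R4. HBG2, OR51B4, OR51B2 and AC104389.5 were called in the same direction. These 5 were named because they lie within 500 kb of OR51B5, after their values were seen. Within the same distance TRIM6 (difference 0.13, adjusted p = 0.877), TRIM5 (0.15, adjusted p = 0.75) and TRIM34 (0.58, adjusted p = 0.164) were tested and not called. Their gene models overlap or lie inside one another, OR51B5 with 17 other genes of the annotation, so the share of each gene in these reads is uncertain.

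Further names are uncertain for the same kind of reason. NXF2 (0.847 to 10.6 TPM in R1, at most 0.076 TPM in R4) and NXF2B (0.819 to 9.57 TPM, at most 0.104 TPM) are near-identical copies on the X chromosome that encode mRNA export factors of the testis. The cancer-testis genes SSX2 and GAGE12G also have close copies. SSX2 had 12.8 to 27.9 TPM in R1, 12.6 ± 4.77 TPM (SD, n = 4) in clone 4.1, and was listed at 0 in all 3 libraries of clone 4.2. GAGE12G had 23.4 ± 1.64 TPM (SD, n = 4) in clone 1.2 and clone means of 2.34 TPM or less in the other 3. IL1RL1, the receptor for interleukin 33, overlaps IL18R1, and both were called. IL1RL1 was listed at 0 in all 4 libraries of clone 4.1 and had 0.054, 0.672 and 1.75 TPM in clone 4.2. Its R1 libraries ran from 0.231 to 13.3 TPM, so the groups overlapped.

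Among the genes higher in R4, FDCSP had the largest difference. FDCSP encodes a small secreted peptide known from follicular dendritic cells. Its R4 libraries had 3.36, 22.8 and 111 TPM as lowest, median and highest, and its R1 libraries 0, 0.28 and 3.41 TPM. Library 2 of clone 1.1, at 3.41 TPM, passed the lowest R4 library by a small margin, and the other 6 R1 libraries lay below all R4 libraries. The difference was -3.64 (SE 0.44, adjusted p = 0.000175). Without clone 1.2 the adjusted p of FDCSP was 0.0654.

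TAC1 and CTSK were higher in all 7 R4 libraries. TAC1, which encodes the precursor of the neuropeptide substance P, had 2.51, 8.29 and 34.7 TPM in R4 and 0, 0.111 and 1.67 TPM in R1, as lowest, median and highest library. Its difference was -2.81 (SE 0.46, adjusted p = 0.00232), with an adjusted p of 0.231 without clone 1.2. CTSK encodes cathepsin K, a collagen-cleaving protease of the lysosome. Its R4 libraries had 5.20, 23.7 and 34.6 TPM and its R1 libraries 0.812, 2.42 and 2.98 TPM. CTSK had a difference of -2.71 (SE 0.29, adjusted p = 5.35e-05) and was called without any 1 library. Its clone means were 1.72 and 2.13 TPM in R1 and 26.9 and 13.6 TPM in R4. On the log2(TPM + 1) scale the R1 clone means were 0.245 apart and the R4 clone means 1.16 apart, and the smallest difference between an R1 and an R4 clone was -2.005.

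Other genes with higher levels in R4 span transport, signalling and transcription. ATP10B, a lipid flippase, had 1.05 to 8.16 TPM in R4 and at most 0.541 TPM in R1. LHX8, a LIM homeodomain transcription factor, had 4.68, 7.36 and 9.85 TPM in R4 and 1.74, 2.15 and 3.01 TPM in R1. CECR2, a chromatin remodelling factor with a bromodomain, had 1.92 to 3.25 TPM against 0.451 to 1.24 TPM, and the protease inhibitor PI15 had 3.06 to 6.73 TPM against 0.817 to 2.08 TPM. In these 4 genes and in NFATC2 the groups did not overlap. NFATC2, a calcium-regulated transcription factor, was the most abundant of them, with 136 TPM as the R4 median (48.2 to 152) and 25.3 TPM as the R1 median (11.2 to 39.2). Its difference was -2.01 (SE 0.18, adjusted p = 1.29e-05), and clone 4.1 (143 ± 6.56 TPM, SD, n = 4) stood above clone 4.2 (59.7 ± 16.9 TPM, SD, n = 3).

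In the remaining 4 of the 12 most separated genes higher in R4, libraries overlapped. The kinase gene LRRK2 had 2.72 to 11.2 TPM in R4 and 0.484 to 3.55 TPM in R1. PDE3A, a cyclic nucleotide phosphodiesterase, had clone means of 40.3 and 11.4 TPM in R4 and 6.31 and 4.01 TPM in R1. SEMA3G, a secreted semaphorin, had 17.0 and 2.51 TPM in R4 and 0.929 and 0.887 TPM in R1, and the scavenger receptor gene SCARA5 had 15.1 and 9.58 TPM against 5.20 and 1.83 TPM. Library 1 of clone 1.1 gave the highest R1 value of LRRK2, PDE3A, SEMA3G and SCARA5.

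Of 25 neural crest and glial genes tested, 10 were separated, beside 19.6% of all genes tested. Of these, 9 were higher in R4, SOX10 itself among them. The median difference of the 25 was -0.22 beside 0.01 over all genes tested. An adjusted p under 0.05 was reached by 11 of the 25, against 5.27% of all genes. These 11 included SOX10, and not all of them were separated. Of the 25, 2 were called, against 1%. RXRG, a retinoid X receptor, had 0.365, 0.952 and 4.34 TPM as lowest, median and highest R1 library and 1.84, 38.3 and 42.3 TPM in R4. Its difference was -2.64 (SE 0.27, adjusted p = 3.62e-05), with clone 4.1 at 40.5 ± 1.66 TPM (SD, n = 4) and clone 4.2 at 4.30 ± 2.37 TPM (SD, n = 3). SOX8, a close relative of SOX10, was listed at 0 in all 4 libraries of clone 1.2 and had 4.14 ± 2.47 TPM (SD, n = 4) in clone 4.1. The receptor gene ERBB3 had 176 and 197 TPM in R1 against 343 and 214 TPM in R4 (adjusted p = 0.223). SOX9 was the 1 separated member higher in R1, at 1.89 TPM in clone 1.2 and at most 0.0447 TPM in the other clone means. TFAP2B shows how a single clone could carry a difference, with 3.90 TPM in clone 1.2 and 86.6, 158 and 72.4 TPM in clones 1.1, 4.1 and 4.2, so it was not separated.

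Genes of undifferentiated and mesenchymal melanoma states were split. Of 21 tested, 4 were separated as higher in R1 and 3 as higher in R4, while 19.6% of all genes tested were separated either way. EGFR and AMIGO2 were called, 2 of 21 beside 1% of all genes. AMIGO2, an adhesion protein, had 22.4 to 98.4 TPM in R1 and 9.39 to 53.2 TPM in R4, with overlapping libraries (difference 1.40, SE 0.29, adjusted p = 0.0113). CD44 and VIM, the hyaluronan receptor and the mesenchymal filament protein, were separated as higher in R1, with differences of 0.52 (adjusted p = 0.0293) and 0.31 (adjusted p = 0.244). SNAI1, TWIST1 and TNC were separated as higher in R4. TWIST1 had 19.7 and 12.3 TPM in R1 against 32.5 and 20.4 TPM in R4 (adjusted p = 0.00431).

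Output genes of the ERK pathway and AP-1 factors gave 1 call among 26 tested, beside 1% of all genes called. FOSL2, an AP-1 subunit, had 9.11, 17.4 and 52.8 TPM in R1 and 5.12, 7.87 and 8.87 TPM in R4, with no overlap between the groups. Its difference was 1.15 (SE 0.20, adjusted p = 0.00413). In the same list 5 genes were separated as higher in R4, among them IER3 (162 and 173 against 307 and 206 TPM, adjusted p = 0.0225), and the ERK feedback gene SPRY4 was not separated, at 118 TPM in clone 1.1 and 106 TPM in clone 4.2.

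MHC genes, whose products present peptides to T cells, were separated in 1 direction. Of 24 tested, 10 were separated, beside 19.6% of all genes tested. In those 10 both R4 clones were higher, and the median difference over the list was -0.35. No member was called, and 4 members, all class II genes, had an adjusted p under 0.05, beside 5.27% of all genes tested. HLA-DRA had 256 and 263 TPM in R1 against 568 and 301 TPM in R4 (difference -0.67, SE 0.15, adjusted p = 0.0151). HLA-DQB1 had 44.8 and 44.1 TPM against 99.0 and 56.0 TPM (adjusted p = 0.0106). HLA-DRB1 and HLA-DRB5, which resemble each other in sequence, had adjusted p values of 0.0126 and 0.0101. The class II activator CIITA had 17.6 and 14.8 TPM in R1 and 23.5 and 23.5 TPM in R4 (adjusted p = 0.436).

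Hypoxia and glycolysis genes were separated in the opposite direction. Of 28 tested, 10 were separated, beside 19.6% of all genes tested. The R1 clones were higher in those 10, with a median difference of 0.41 over the list. None had an adjusted p under 0.05. The glucose transporter gene SLC2A1 had 277 and 482 TPM in R1 and 181 and 244 TPM in R4 (adjusted p = 0.0562), and the lactate dehydrogenase gene LDHA had 1407 and 1732 TPM against 1182 and 1142 TPM (adjusted p = 0.336). NDRG1, a gene induced by low oxygen, varied most within groups, from 84.1 to 1759 TPM in R1 and from 71.2 to 591 TPM in R4. The summed level of the list ran from 20620 to 46790 TPM in R1 libraries, and from 14620 to 23890 TPM in R4 libraries. With the replicate number as a block 1 member was called, among 179 genes in all. Without library 2 of clone 1.2 there were 2 among 180, and without clone 1.1 there were 7 among 988.

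Clustered protocadherins, adhesion proteins of which single cells express a choice, were separated in 11 of 41 tested, beside 19.6% of all genes tested. R4 was higher in those 11. PCDHA1 was the 1 member called of the 41, beside 1% of all genes. It had clone means of 2.49 and 0.321 TPM in R1 and 2.95 and 4.49 TPM in R4 (adjusted p = 0.00353). Its gene model spans 21 other annotated genes, most of them other members of the cluster, so its own share of the reads is uncertain.

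The lists of matrix, integrin and guidance genes gave few calls, all of them higher in R1. The calls were 1 of 31 matrix genes, 1 of 24 integrins and laminins and 2 of 29 axon guidance genes, beside 0.524% of all genes called higher in R1. Related genes outside these lists were called both ways. The semaphorin gene SEMA3G and the collagen gene COL19A1 were higher in R4, and the collagen gene COL13A1 was higher in R1. Of the matrix genes 3 were separated with higher levels in R1 and 5 with higher levels in R4 (median difference -0.26), of the integrins and laminins 1 and 3 (median -0.025), and of the axon guidance genes 5 and 4 (median -0.044). SPP1, the gene of osteopontin, was the called matrix gene, with 33.6 ± 19.1 TPM (SD, n = 4) in clone 1.2, 5.01 ± 3.99 TPM (SD, n = 3) in clone 1.1 and at most 5.10 TPM in an R4 library. ITGB4, an integrin chain of epithelial anchoring junctions, was the called integrin, at 128 ± 54.5 TPM (SD, n = 4) in clone 1.2 and 7.04 ± 4.94 TPM (SD, n = 3) in clone 1.1, beside 2.48 and 5.07 TPM in the R4 clones. The called axon guidance genes were EPHA7 and SEMA3D. The ephrin receptor gene EPHA7 had 4.77 and 3.87 TPM in R1 and 0.231 and 2.14 TPM in R4. SEMA3D had 9.26 TPM in clone 1.2 and between 1.02 and 1.29 TPM in the other clone means, so its smallest clone-to-clone difference was 0.04. The matrix metalloproteinase gene MMP17 was lower in all 7 R1 libraries (10.4 to 19.8 TPM) than in the R4 libraries (21.9 to 33.7 TPM), with a difference of -0.80 and an adjusted p of 0.00678.

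The other lists gave no call beyond the 2 of 35 cancer-testis antigens named above, beside 1% of all genes called. Separated members numbered 1 of 9 melanocytic genes, 4 of 26 interferon-stimulated genes, 4 of 22 NF-kB genes, 1 of 31 cell cycle genes, 2 of 27 sterol genes and 7 of 30 stress response genes. Read against 19.6% of all genes, these shares lie near or below the background. The separated cell cycle gene was CDKN1A, an inhibitor of cyclin-dependent kinases, with 124 and 145 TPM in R1 against 64.5 and 95.4 TPM in R4 (adjusted p = 0.00738), and its libraries did not overlap.

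**Figure D4:**
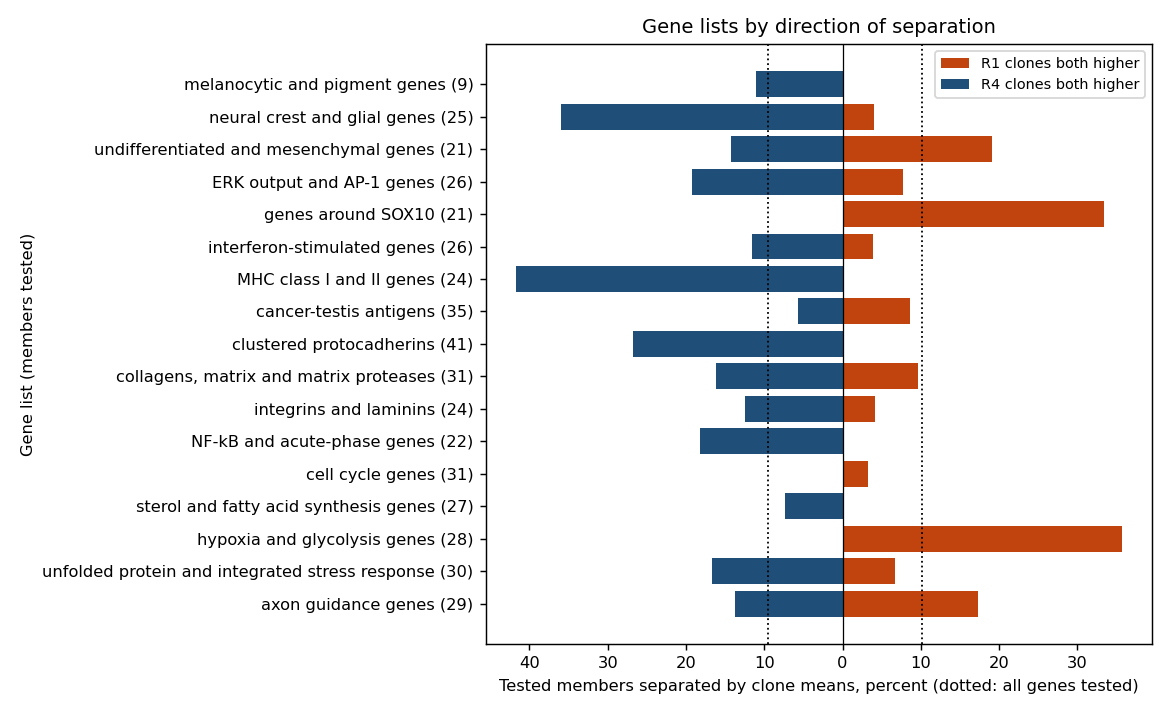
Percentage of the tested members of each gene list whose R1 clone means both lie above (orange, right) or below (blue, left) both R4 clone means, with dotted lines at the percentages over all genes tested and the number of tested members in brackets. MHC genes (10 of 24) and protocadherins (11 of 41) lie to the left, and hypoxia and glycolysis genes (10 of 28) and genes around SOX10 (7 of 21) to the right.

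Promoters of the called genes were searched for short motifs, because SOX8 and the AP-1 gene FOSL2 were called and the deleted regions are those of SOX10. RefSeq windows of 300 bases, from 250 before to 50 after the start of a gene (GRCh38.p14), were found for 57 of the genes higher in R1 and 54 of those higher in R4. A SOX core, ACAAAG or ACAATG on either strand, was present in 28.1% and 20.4% of these windows, beside 24.6% of 27305 windows in all. The AP-1 motif TGANTCA was present in 15.8% (9 genes) and 7.41% (4 genes), beside 7.76% of all windows. The E-box CATGTG was present in 10.5% and 11.1%, beside 11.2%. Among the named genes with an AP-1 match whose window covers the start in the gene annotation, AMIGO2 was higher in R1 and ATP10B higher in R4, and both windows are shown for that contrast, 5′ to 3′ along the gene with motif matches in capitals. The AMIGO2 window is chr12:47079902-47080201 and the ATP10B window chr5:160852162-160852461, both on the minus strand. A match describes letters and not a bound site.
AMIGO2: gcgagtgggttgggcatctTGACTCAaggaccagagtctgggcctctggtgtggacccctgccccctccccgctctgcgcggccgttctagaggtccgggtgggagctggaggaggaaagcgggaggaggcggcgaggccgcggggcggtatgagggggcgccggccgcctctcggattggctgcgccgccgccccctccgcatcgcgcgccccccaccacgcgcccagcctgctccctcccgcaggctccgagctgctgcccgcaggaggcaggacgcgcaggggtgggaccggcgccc
ATP10B: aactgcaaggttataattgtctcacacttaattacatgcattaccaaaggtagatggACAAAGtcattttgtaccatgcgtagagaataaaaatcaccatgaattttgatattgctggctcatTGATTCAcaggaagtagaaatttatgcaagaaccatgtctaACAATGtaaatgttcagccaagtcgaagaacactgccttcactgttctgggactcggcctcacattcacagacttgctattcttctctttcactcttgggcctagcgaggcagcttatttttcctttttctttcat
ATP10B holds 3 matches, 1 of AP-1 and 2 of the SOX cores, and AMIGO2 holds 1, of AP-1.

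Called genes were spread over the chromosomes. The median difference of a chromosome reached 0.1 in size on 2 of them, chromosome 13 (-0.18) and chromosome 17 (0.10), and 157 of the 165 called genes lay on the 21 others. On chromosome 13 clone 1.2 stood apart, with medians of -0.32 for clone 1.2 minus clone 4.1, -0.39 for clone 1.2 minus clone 4.2 and 0.37 for clone 1.1 minus clone 1.2. Among the 21 others, the medians of some pairs of clones also passed 0.1 in size. On chromosome 1, which held 18 called genes, clone 1.1 minus clone 1.2 gave -0.208. On chromosome 15 clone 1.1 minus clone 4.1 gave -0.175, and on chromosome 16 clone 4.1 minus clone 4.2 gave -0.153. Within 500 kb of another called gene lay 28 called genes in 11 groups, and in 8 groups the members shared a direction. Besides the globin stretch, one such group was SOX8 with its neighbour CEROX1, both higher in R4.

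WM115 is a second melanoma line with clones of the same 2 labels, and its 14 libraries were not used to choose the genes. Another clone, 1.3, was left out because its labels conflict. In WM115 the same rule called 587 of 16275 genes, or 3.61%, with 216 higher in R1, and 34.9% were separated. Of the 165 genes called in A375, 116 were tested in WM115. The direction was the same in 75, or 64.7%, beside 55.7% of all 14894 genes tested in both lines. By direction, 27 of 50 genes higher in R1 and 48 of 66 genes higher in R4 kept their sign. Called in the same direction in both lines were 19 genes, 11.5% of the A375 calls and 3.24% of the WM115 calls, and 5 were called in opposite directions. Library 3 of WM115 clone 1.2 stood apart from the rest of its clone, with SOX10 at 9.56 TPM beside 279 and 272 TPM. Without it, the same direction held in 58 of 112, with 14 called the same way and 7 the opposite way. That share is below both the 64.7% and the 55.7%, and the share over all genes was not computed without this library.

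The genes called the same way included several of those described above. FDCSP was listed at 0 in both WM115 R1 clones and had 115 and 1.23 TPM in the WM115 R4 clones. ATP10B had 1.96 and 1.60 TPM in WM115 R1 against 4.18 and 4.35 TPM in R4 (difference -1.04, adjusted p = 0.033), but without library 3 of WM115 clone 1.2 its difference was -0.79 (adjusted p = 0.0734) and it was not called. LHX8 had 0.0072 and 0.403 TPM against 0.659 and 3.18 TPM (difference -1.14, adjusted p = 1.35e-05), LINC00973 had 3.48 and 21.1 TPM against 1.95 and 1.95 TPM, and SPP1 had 234 and 150 TPM against 20.9 and 11.1 TPM. Opposite calls were CTSK, PI15, HES2, ARHGDIB and PDGFB. CTSK had 4.30 and 8.66 TPM in WM115 R1 and 0.839 and 2.49 TPM in WM115 R4, a difference of 1.39 (SE 0.28, adjusted p = 0.0025), and 1.105 (adjusted p = 0.00141) without library 3 of WM115 clone 1.2. RXRG had a WM115 difference of 0.15 (adjusted p = 0.894) over all libraries, and 1.04 (adjusted p = 0.000653) without that library, which is a call opposite to that in A375.

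EGFR did not keep its direction in WM115. Its levels there were 0.0422 TPM in R1 clone 1.1, 11.6 TPM in R1 clone 1.2 and 7.09 and 4.99 TPM in the R4 clones, with a difference of -0.94 (SE 0.15, adjusted p = 0.000579). The test of the difference between the lines gave 2.40 (adjusted p = 1.58e-08). SOX10 gave a WM115 difference of -1.07 (SE 0.58, adjusted p = 0.196), and its difference between the lines was 0.59 (adjusted p = 0.615). Without library 3 of WM115 clone 1.2 the WM115 difference of SOX10 was -0.29 (SE 0.12, adjusted p = 0.093) and the difference between the lines -0.19 (adjusted p = 0.559). Over 18099 genes, 867 (4.79%) had a called difference between the lines, and 99 of the 165 were among them (116 without that library). The 165 were chosen for their A375 difference, which is part of this test, so their share cannot be read against 4.79%. Of them, 49 were not tested in WM115. LINC02531, LINC02184, NCOR1P4, TAC1 and EPHA7 were listed at 0 in the WM115 clone means, so for these the difference between the lines restates the A375 difference. OR51B5, NXF2, NXF2B, GAGE12G, IL1RL1, LINC01608, SEMA3G and PCDHA1 had WM115 clone means under 1 TPM, so their value rests mainly on A375.

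**Figure D5:**
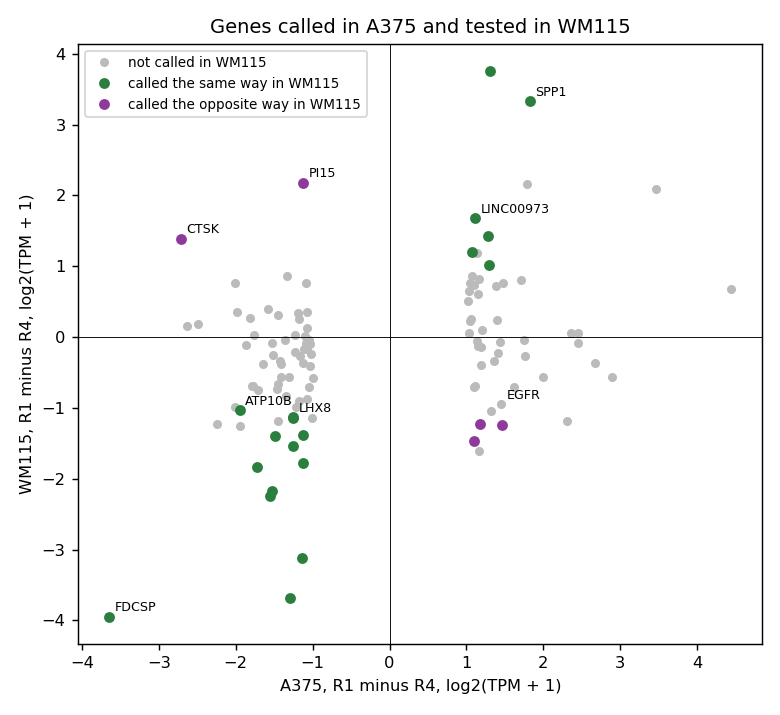
Difference between R1 and R4 clones in A375 (horizontal) and in WM115 (vertical), on the log2(TPM + 1) scale, for the 116 genes called in A375 and tested in WM115. Green points are the 19 called the same way in both lines and purple points the 5 called in opposite ways.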

How the data were processed

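Poly-A selected RNA of 14 A375 clone libraries was sequenced, and the authors deposited a gene table in TPM. DRAGEN and GRCh38 are named in the submitters' processing notes, while the annotation release and the strand setting are not given in the sources used here. TPM keeps no depth, so depth and counting error are unknown. Values were used as log2(TPM + 1) after a filter of 1 TPM in at least 3 of the 14 libraries. Of 60871 table lines, 200 repeated a gene and were removed, and 6 columns matched no sample and were not used.

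limma 3.58.1 in R 4.3.3 was fitted with 1 coefficient per clone and a variance trend, and the mean of the R1 clones was contrasted with the mean of the R4 clones (two-sided, Benjamini-Hochberg adjustment over all genes tested). The clone-level fit used 4 clone means. The procedure was tested on simulated data without differences between clones of the same deletion, so false calls from such differences were not covered. WM115 was fitted in the same way, and the difference between lines in 1 fit over both. Genes were placed with GENCODE on GRCh38. Named genes were SOX10, the 12 called genes of either direction with the largest smallest clone-to-clone difference, and up to 4 called members of each list. List members with values beside these were named after their values were seen. The members and the 17 lists were chosen with earlier results of these data known. Alternatives covered the pseudocount, filter, scaling, trend, blocks, libraries and clones.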

Additional observations from a re-analysis of the deposited data

Results flagged for a closer look

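Among the 35 named genes and 70 groups of 4 libraries, 2 libraries stood apart from their group by Dixon's criterion, which chance alone meets in about 1 group of 20. Both were library 2 of clone 1.2, with CTSK at 1.05 TPM and PDE3A at 1.77 TPM, each the lowest of its clone.

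A difference between the lines passed the test in 26 of the 35 named genes. Each value here is the A375 difference, R1 minus R4, less the WM115 difference, on the log2(TPM + 1) scale. Positive values were found for UCA1 (3.78), OR51B5 (3.75), ITGB4 (3.45), GAGE12G (2.76), EGFR (2.40), SSX2 (2.39), NXF2 (2.37) and IL1RL1 (2.19). Smaller positive values belonged to NXF2B (1.91), LINC02531 (1.83), LINC02184 (1.48), EPHA7 (1.37), NCOR1P4 (1.33), AMIGO2 (1.15), LINC01608 (1.13) and SEMA3D (1.105). Negative values were found for CTSK (-4.10), PI15 (-3.31), TAC1 (-2.81), RXRG (-2.79), PDE3A (-2.76) and SEMA3G (-2.12). The remaining negative values were those of SCARA5 (-1.79), LRRK2 (-1.75), CECR2 (-1.11) and PCDHA1 (-1.03). Without library 3 of WM115 clone 1.2, a choice made for single genes after seeing the data, these 26 passed again, and ATP10B (-1.16), NFATC2 (-1.98) and SPP1 (-1.79) passed as well. Over libraries of clones, these tests compare the clones of the lines and not the deletions. All named genes but SOX10 were chosen by their A375 call, so the number that passed partly follows from that choice.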

How the results depend on the processing

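The 165 called genes became 293 with a pseudocount of 0.1, 82 with a mean of at least 5 TPM, 2 with the clone as a random block, 525 with no minimum difference, 272 with separation not required, 17 with a smallest clone-to-clone difference of at least 1, and 40 in libraries of low mitochondrial share. Leaving out 1 library gave 108 to 270, and 68 genes kept their call throughout these omissions. Without clones 1.1, 1.2, 4.1 and 4.2 in turn the counts were 988, 48, 97 and 655. On the 21 chromosomes with a median under 0.1, the 157 calls became 270, 78, 2 and 38 under the pseudocount of 0.1, the mean of 5 TPM, the random block and low mitochondrial share, 100 to 256 without 1 library, and 897, 45, 93 and 590 without each clone. Calls higher in R1 were 52.1% of the total, 43.9% with the mean of 5 TPM and 100% of the 2 with the random block. The counts separated by clone means stayed between 2854 and 4203. No gene was called with the clone as the unit in any setting run.

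SOX10 kept its sign. Its difference was -0.48 with no filter (adjusted p = 0.0708), -0.45 after quantile normalization (0.102), -0.48 with the mitochondrial set as a term (0.052), -0.50 with the random block (1), -0.39 without clone 1.2 (0.553), -0.24 without clone 4.1 (0.596) and -0.53 in low mitochondrial libraries (0.452). Leaving out 1 library gave -0.38 to -0.58, with adjusted p values from 0.00513 to 0.0941 that lay above 0.05 in most of these fits. Of 933 values of named genes under alternatives, 846 kept direction and call, 87 lost the call, most under the random block (32), without clone 1.2 (19) and in low mitochondrial libraries (19), and 0 reversed. The causes were not tested.

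The labels do not say that a replicate number marks a shared batch or day. The 3 same-numbered pairs of clones 1.1 and 4.2 deviated together, with correlations of 0.439 to 0.744, the other pairs of clones had at least 1 correlation under 0.1, and 3 of 14 libraries correlated best with their own number. With the replicate block 179 genes were called, all 165 among them, 171 of them on those 21 chromosomes, and SOX10 had -0.48 (adjusted p = 0.0284).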
